A study of Rattus norvegicus with 4 samples.

Results

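The genes described are the alpha- and beta-tubulin isotypes, the building blocks of microtubules, in heart muscle cells depleted of carnitine acetyltransferase. They were taken by symbol from a list of 10 names (Tuba1a, Tuba1b, Tuba1c, Tuba4a, Tubb2a, Tubb2b, Tubb3, Tubb4b, Tubb5 and Tubb6). Of these, 9 had a row, 3 alpha and 6 beta isotypes, among 14137 gene identifiers in all; Tuba1a was not analysed here, because no row carried its symbol, and 1551 identifiers without any symbol were not assigned one. The list was selected on values of these same libraries, the isotypes' levels in the Crat hairpin and control groups. Levels and differences of the isotypes are therefore given as a description, and the calls on them support nothing by themselves.

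Crat was depleted in neonatal rat ventricular myocytes, heart muscle cells in primary culture, infected with a lentivirus carrying a short hairpin RNA against Crat, 2 libraries, labelled knockout in GEO although a hairpin lowers a transcript and does not delete the gene. Their controls were myocytes of the same kind infected with a lentivirus carrying a control hairpin, 2 libraries labelled wild type. RNA was taken on day 5 in both groups. Such primary cultures also carry fibroblasts, smooth muscle cells and other cells of the heart. Whether 2 libraries of a group stem from different cultures is not stated, and p-values then measure only a spread that may be technical.

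A microtubule is a hollow tube of alpha- and beta-tubulin dimers that grows and shrinks at its ends. Mammals carry several genes of each kind, whose proteins differ mostly in their tails, where enzymes remove or add tyrosine and attach glutamates. In heart muscle cells microtubules carry cargo, anchor to the desmin network and bear load during contraction, and a dense or detyrosinated network makes the cell stiffer. Cells also hold their tubulin in balance by destroying tubulin mRNA when free dimers accumulate.

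The values are reads scaled to a common library total (RPM), not divided by gene length, although their header names another unit. They compare a gene between libraries; a level or share of reads set between isotypes follows transcript length as well as abundance. Library totals were 321516 and 1622998 reads in the Crat hairpin group and 23680064 and 1321735 reads in the control group, a 73.7-fold range. Crat itself stood at 24.9 and 19.7 RPM in the Crat hairpin libraries and at 148 and 156 RPM in the control libraries (log2 fold change -2.72 ± 0.19 SE; limma with Benjamini-Hochberg adjustment, adjusted p = 7.3e-06). The tubulin values rest on 711 and 3534 reads in the Crat hairpin libraries and on 79247 and 4471 reads in the control libraries. Isotypes are close copies of each other, so how reads were divided among them is uncertain. The RefSeq gene table of the GRCr8 assembly also lists 14 pseudogenes named after Tuba1b and 4 named after Tubb4b. In that table Tuba1b and Tuba1a are next neighbours among protein-coding genes, and Tubb2b and Tubb2a lie on either side of Tubb2al1.

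All 9 isotypes with a row also had a RefSeq promoter. The 250 bases before the annotated start are shown for the alpha and the beta isotype with the most reads, Tuba1b and Tubb5, for Tubb2b, which was nearly without reads in the Crat hairpin libraries, and for Tuba1c and Tubb4b, whose levels were not lower there beyond the spread. Capitals mark CCAAT boxes on either strand (ATTGG on the minus strand) and TATATAA or TATAAA on the strand of the gene. Positions in the GRCr8 build are chr7:131972588-131972837 on the minus strand for Tuba1b, chr20:2917327-2917576 on the plus strand for Tubb5, chr17:30952836-30953085 on the plus strand for Tubb2b, chr7:132070734-132070983 on the plus strand for Tuba1c and chr3:28438456-28438705 on the minus strand for Tubb4b.
Tuba1b: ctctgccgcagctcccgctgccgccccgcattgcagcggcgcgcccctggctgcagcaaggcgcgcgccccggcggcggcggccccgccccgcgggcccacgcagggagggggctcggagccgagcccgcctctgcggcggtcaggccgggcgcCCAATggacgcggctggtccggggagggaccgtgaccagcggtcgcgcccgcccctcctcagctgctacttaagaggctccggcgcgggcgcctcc
Tubb5: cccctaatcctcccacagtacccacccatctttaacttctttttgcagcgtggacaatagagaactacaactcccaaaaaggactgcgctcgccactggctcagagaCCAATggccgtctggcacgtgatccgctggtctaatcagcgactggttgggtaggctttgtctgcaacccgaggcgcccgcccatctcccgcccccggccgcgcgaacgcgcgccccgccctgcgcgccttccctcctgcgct
Tubb2b: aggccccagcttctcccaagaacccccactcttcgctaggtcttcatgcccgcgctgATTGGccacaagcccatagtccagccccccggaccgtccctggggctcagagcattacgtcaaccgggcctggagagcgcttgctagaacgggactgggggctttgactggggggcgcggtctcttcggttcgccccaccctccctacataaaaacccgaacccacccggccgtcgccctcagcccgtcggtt
Tuba1c: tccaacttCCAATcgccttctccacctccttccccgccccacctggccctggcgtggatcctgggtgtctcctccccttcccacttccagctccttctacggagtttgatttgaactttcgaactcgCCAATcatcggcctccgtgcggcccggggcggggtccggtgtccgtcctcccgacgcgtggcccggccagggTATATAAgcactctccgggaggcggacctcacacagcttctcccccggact
Tubb4b: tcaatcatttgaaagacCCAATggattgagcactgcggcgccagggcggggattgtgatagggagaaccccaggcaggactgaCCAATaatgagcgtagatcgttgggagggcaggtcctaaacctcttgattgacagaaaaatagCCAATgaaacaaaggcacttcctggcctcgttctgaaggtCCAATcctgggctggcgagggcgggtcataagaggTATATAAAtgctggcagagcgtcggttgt

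With both strands searched, CCAAT was found in 7 of the 9 windows and in 34.3% of the 27457 promoter windows of the same length in RefSeq. GGGCGG, the GC box, was found in 8 of the 9 and in 32.4% of all. TATATAA was found in 2 of the 9, Tuba1c and Tubb4b, and in 3.40% of all, and TATAAA in Tubb2a and Tubb4b and in 13.1% of all; in Tubb4b these share bases. The cyclic AMP response element TGACGTCA was found in Tubb2a alone among the 9 and in 1.70% of all. These matches describe letters in a window and say nothing of a factor bound there.

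Alpha sums and the ratio of beta to alpha rest on Tuba1b, Tuba1c and Tuba4a, without Tuba1a and without the low Tuba8. Summed over these 3 alpha isotypes, tubulin reads came to 1176 and 1111 RPM in the Crat hairpin libraries and to 1986 and 2013 RPM in the control libraries. The 6 beta isotypes came to 1036 and 1067 RPM in the Crat hairpin libraries and to 1361 and 1369 RPM in the control libraries. The Crat hairpin mean was 0.572 of the control mean for the alpha sum and 0.770 for the beta sum, and the groups overlapped in neither. The ratio of beta to alpha reads was 0.881 and 0.960 in the Crat hairpin libraries against 0.686 and 0.680 in the controls. The summed tubulins made up 0.219% ± 0.002 of all reads in the Crat hairpin group and 0.336% ± 0.003 in the control group (SD, n = 2 each). An exact permutation test of 2 against 2 libraries cannot go below p = 0.333, so no test was made of these sums. In a bulk culture, fewer cells of a type and less RNA per cell cannot be told apart.

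Among the alpha isotypes, Tuba1b (ENSRNOG00000053468), the broadly expressed alpha-tubulin, had 980 and 911 RPM in the Crat hairpin libraries and 1737 and 1781 RPM in the control libraries. Its log2 fold change, on the scale of log2(RPM + 1) as are all below, was -0.90 ± 0.06 (SE, 2 libraries against 2), and the groups lay well apart. Tuba4a (ENSRNOG00000003597) encodes an alpha-tubulin that lacks the terminal tyrosine other alpha-tubulins are made with. It had 49.8 and 68.4 RPM in the Crat hairpin libraries, from 16 and 111 reads, and 127 and 126 RPM in the control libraries, a log2 fold change of -1.10 ± 0.18. Both Crat hairpin values were below both controls, and they differed more from each other than the controls did. Tuba1c (ENSRNOG00000021438), a close relative of Tuba1b, stood on the other side, with 146 and 132 RPM in the Crat hairpin libraries and 122 and 106 RPM in the control libraries. Its log2 fold change was 0.29 ± 0.13 and did not pass the threshold. The groups did not overlap, and after median-of-ratios scaling the Tuba1c log2 fold change was 0.096. On recovered reads it was -0.017 in edgeR and -0.047 in limma voom, so the direction of Tuba1c is not settled.

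Among the beta isotypes, Tubb5 (ENSRNOG00000061216), the broadly expressed class I beta-tubulin, had 644 and 619 RPM in the Crat hairpin libraries and 828 and 844 RPM in the control libraries, a log2 fold change of -0.41 ± 0.06. Tubb4b (ENSRNOG00000010170), the class IVb isotype found in most tissues, had 249 and 266 RPM in the Crat hairpin libraries and 260 and 256 RPM in the control libraries. Its values overlapped, with a log2 fold change of -0.0060 ± 0.09. Tubb6 (ENSRNOG00000018371), the class V isotype, had 87.1 and 92.4 RPM in the Crat hairpin libraries and 130 and 115 RPM in the control libraries. The Tubb6 log2 fold change of -0.44 ± 0.14 stood just outside the threshold, although the groups did not overlap.

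The remaining beta isotypes are best known from nerve cells. Tubb2a (ENSRNOG00000017558), a class II isotype, had 31.1 and 51.1 RPM in the Crat hairpin libraries, from 10 and 83 reads, and 73.4 and 81.0 RPM in the control libraries, a log2 fold change of -0.93 ± 0.24. Tubb3 (ENSRNOG00000017209), the class III isotype used as a marker of neurons, had 24.9 and 38.2 RPM in the Crat hairpin libraries, from 8 and 62 reads, and 60.0 and 62.0 RPM in the control libraries, a log2 fold change of -0.96 ± 0.24. In both genes the Crat hairpin libraries lay below the controls and differed from each other more than the controls did. Tubb2b (ENSRNOG00000017445), the other class II isotype, had 0 and 0.616 RPM in the Crat hairpin libraries, that is no read and 1 read, and 9.12 and 11.3 RPM in the control libraries, from 216 and 15 reads. With no read in 321516, Crat hairpin replicate 1 alone allows a Tubb2b level of up to 11.5 RPM (upper bound of an exact 95% Poisson interval), which is no lower than the controls. Over both libraries of a group, 1 of 1944514 reads in the Crat hairpin group stood against 231 of 25001799 in the control group, a ratio of 0.0557 with an exact 95% interval of 0.00140 to 0.313 that covers counting error only. The fitted Tubb2b log2 fold change, -3.14 ± 0.68, depends on the pseudocount and was -1.52 with a pseudocount of 5 RPM.

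**Figure D1:**
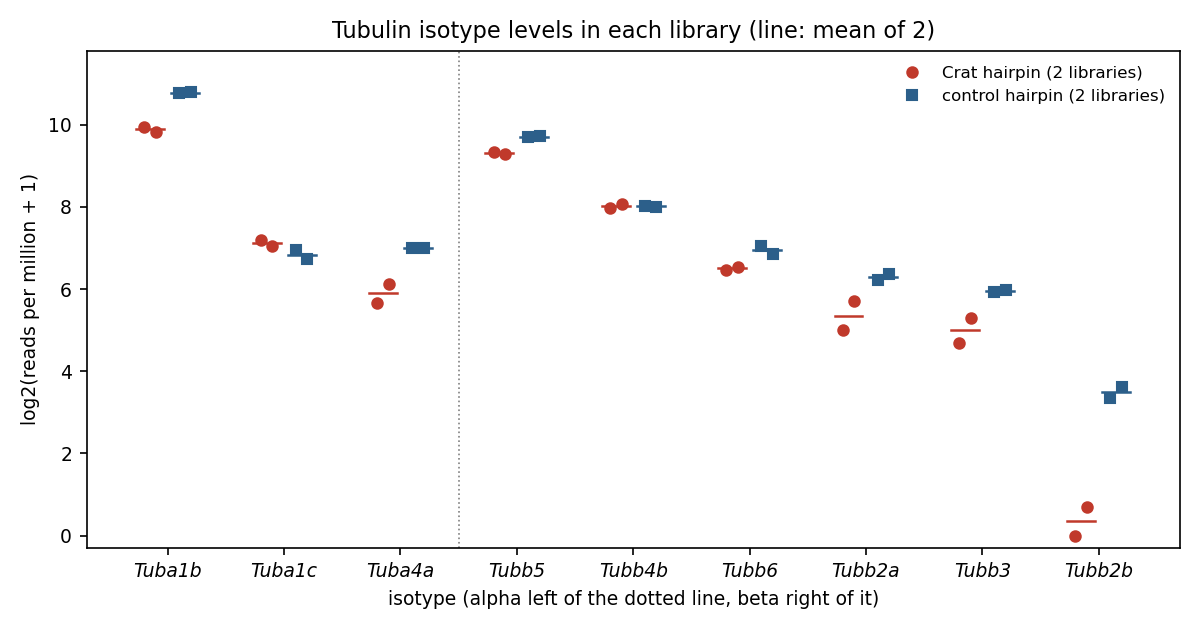
Level of each tubulin isotype as log2(RPM + 1), in the 2 Crat hairpin libraries (circles, left in each pair) and the 2 control libraries (squares), with a line at the mean; alpha isotypes are left of the dotted line. The Crat hairpin points lie below the controls for all but Tuba1c and Tubb4b, and Tubb2b is at or near 0 in the Crat hairpin libraries; heights of different isotypes are not corrected for length.

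Over the whole table, 823 of 12949 genes tested, or 6.36%, passed the limma threshold of 0.05 as lower in the Crat hairpin group, and 12.6% as higher. All 9 isotypes passed the filter on low values. Tubb2b did so only through the control group, with a mean of 10.2 RPM there and 0.308 RPM in the Crat hairpin group. Of them 6 were called lower (Tuba1b, Tuba4a, Tubb2a, Tubb2b, Tubb3 and Tubb5) and 0 higher; at an unadjusted p under 0.05, 0 were higher, and edgeR, DESeq2 and limma voom on the recovered reads also called 0 higher. In 7 of the 9 both Crat hairpin libraries lay below both control libraries, where 21.7% of all genes did so. Since the comparison itself was known when the names were chosen, nothing is read from these counts. The median log2 fold change was -0.90 over the 9 isotypes and 0.15 over all genes tested. Median-of-ratios scaling, which sets the typical gene equal between libraries, moved the median of all genes to -0.03 and every isotype down with it: Tuba1b then stood at -1.09, Tubb5 at -0.60, Tubb4b at -0.20 and Tuba1c at 0.10, and 7 isotypes were called lower, Tubb6 included, where 9.68% of all genes were. Leaving out a control library lowered the number of calls among all genes, and among the isotypes with it. Without control replicate 1, Tuba1b alone was called, where 1.36% of all genes tested were lower, and without control replicate 2, Tuba1b, Tuba4a and Tubb5 were, where 3.21% were. Without Crat hairpin replicate 2, Tuba1c was called higher, with a log2 fold change of 0.36, where 28.3% of all genes were. Without Crat hairpin replicate 1 the log2 fold change was -0.58 for Tubb2a and -0.66 for Tubb3.

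**Figure D2:**
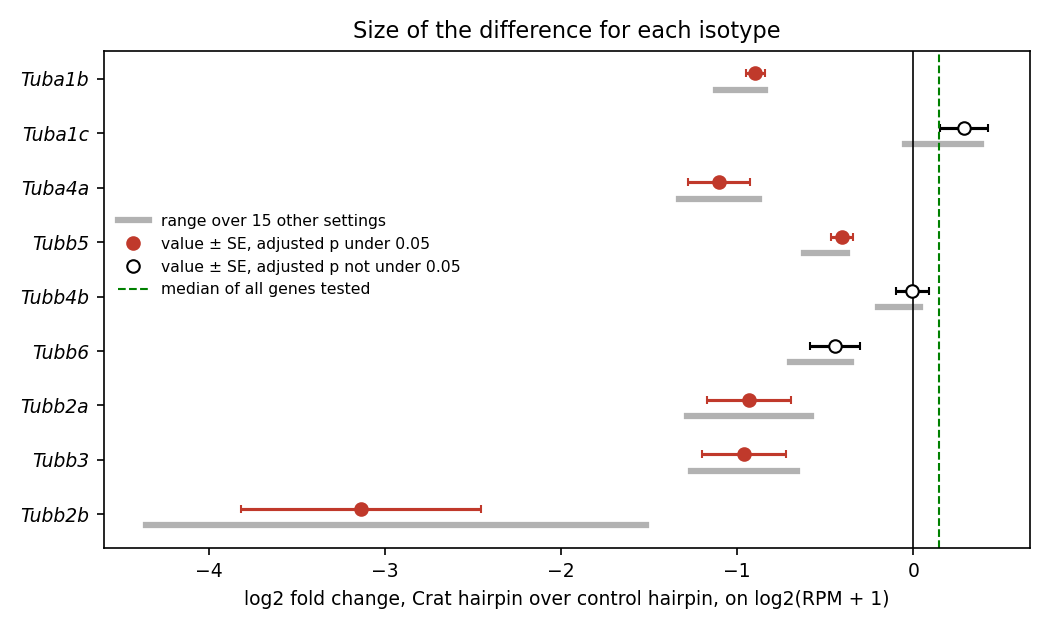
Log2 fold change of each isotype, Crat hairpin over control hairpin on log2(RPM + 1), with its SE (n = 2 libraries each); filled points passed the adjusted threshold of 0.05 over all genes, grey bars give the range over 15 other settings, and the dashed line is the median of all genes tested, 0.15. Tuba1b and Tubb5 have narrow ranges below 0, Tubb2b runs from -4.36 to -1.52, and the ranges of Tuba1c and Tubb4b include 0.

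**Figure D3:**
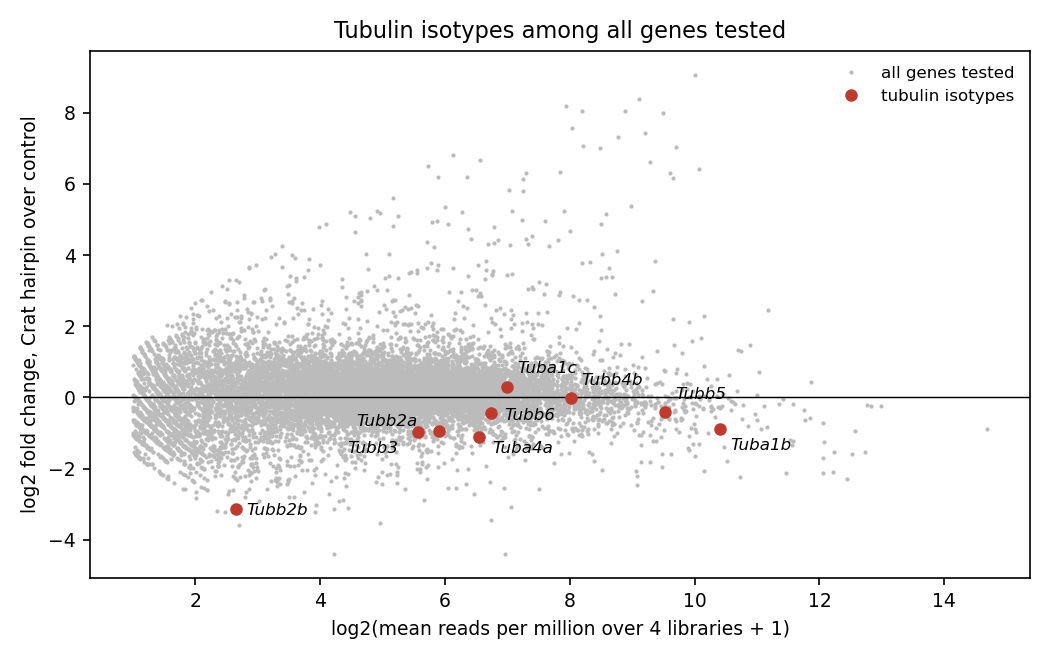
Log2 fold change (Crat hairpin over control) against log2 of the mean level plus 1 for the 12949 genes tested (grey) and the 9 tubulin isotypes (red, named). The isotypes lie between -3.14 for Tubb2b and 0.29 for Tuba1c, and Tuba1b and Tubb5 are the isotypes farthest to the right.

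Because the isotypes did not move alike, their shares of tubulin reads differed between the groups. Alpha shares are of the reads of Tuba1b, Tuba1c and Tuba4a together, without Tuba1a or Tuba8. Shares are of reads, not divided by transcript length, and intervals are exact 95% binomial intervals that cover counting error only. Tuba1b made up 83.3% (79.2 to 87.0) and 82.0% (80.1 to 83.7) of alpha reads in the Crat hairpin libraries and 87.5% (87.2 to 87.8) and 88.5% (87.2 to 89.7) in the control libraries. The share of Tuba1c was 12.4% (9.28 to 16.2) and 11.9% (10.4 to 13.5) in the Crat hairpin libraries and 6.13% (5.92 to 6.36) and 5.26% (4.44 to 6.18) in the control libraries. The Tuba1c share was thus higher by 6.45 percentage points in the Crat hairpin group, with intervals that do not meet. The share of Tuba4a, 5.20% ± 1.36 in the Crat hairpin group and 6.32% ± 0.07 in the control group (SD, n = 2 each), had intervals that overlapped between all libraries.

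In the beta class the share of Tubb4b was 24.0% (19.5 to 29.0) and 24.9% (22.9 to 27.0) in the Crat hairpin libraries and 19.1% (18.7 to 19.5) and 18.7% (17.0 to 20.6) in the control libraries. It was higher by 5.55 percentage points in the Crat hairpin group, and the interval of the shallow Crat hairpin replicate 1 met that of control replicate 2 and all but touched that of control replicate 1. Tubb5 held 60.1% ± 2.9 of beta reads in the Crat hairpin group and 61.2% ± 0.5 in the control group, and Tubb6 held 8.54% ± 0.18 in the Crat hairpin group and 8.99% ± 0.83 in the control group (SD, n = 2 each); both overlapped between groups. Tubb2a held 3.90% ± 1.27 in the Crat hairpin group and 5.65% ± 0.36 in the control group, and Tubb3 held 2.99% ± 0.83 in the Crat hairpin group and 4.47% ± 0.09 in the control group (SD, n = 2 each). Both Crat hairpin shares lay below both control shares for these isotypes, but their counting intervals met. Tubb2b held 0 of 333 beta reads in Crat hairpin replicate 1, which allows up to 1.10%, and 0.0578% (0.00146 to 0.321) in replicate 2, against 0.670% (0.584 to 0.765) and 0.829% (0.465 to 1.36) in the control libraries. Only the deeper Crat hairpin library had an interval clear of the controls.

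**Figure D4:**
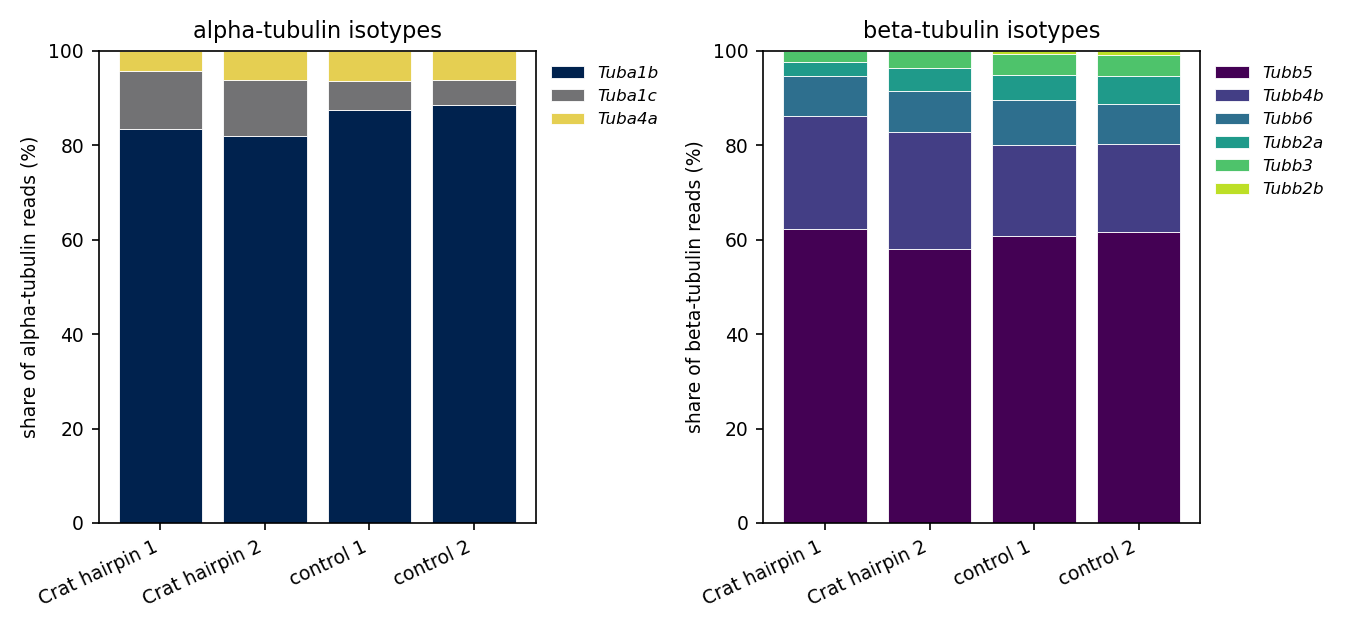
Share of alpha-tubulin reads (left) and beta-tubulin reads (right) held by each isotype, in percent, for each of the 4 libraries with the Crat hairpin libraries first. Tuba1c holds 12.4 and 11.9% of alpha reads in the Crat hairpin libraries against 6.13 and 5.26% in the controls, and Tubb4b 24.0 and 24.9% of beta reads against 19.1 and 18.7%.

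The other genes of the pathway were taken from 9 lists of tubulin and microtubule genes. Of 125 genes tested, 10 rose and 13 fell in the Crat hairpin group by limma, against 12.6% and 6.36% of all genes; after median-of-ratios scaling 5 rose and 24 fell, against 8.06% and 9.68% of all genes. The median log2 fold change of the 125 was -0.02, beside 0.15 for all genes. With a library left out, the counts moved in the same direction as those over all genes. Without control replicate 1, 1 rose and 3 fell, where 3.29% and 1.36% of all genes did. Without control replicate 2, 4 rose and 7 fell, where 6.64% and 3.21% of all genes did. Without Crat hairpin replicate 1, 18 rose and 23 fell, where 19.8% and 10.2% of all genes did, and without Crat hairpin replicate 2, 18 rose and 39 fell, where 28.3% and 20.4% did. Of the 20 genes named below as past the threshold, Mapt, Map1b, Kif5b and Dync1li2 still passed with either control library left out. Without control replicate 2 alone, Ttll4, Map4, Dctn1 and Dynll1 passed as well.

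**Figure D5:**
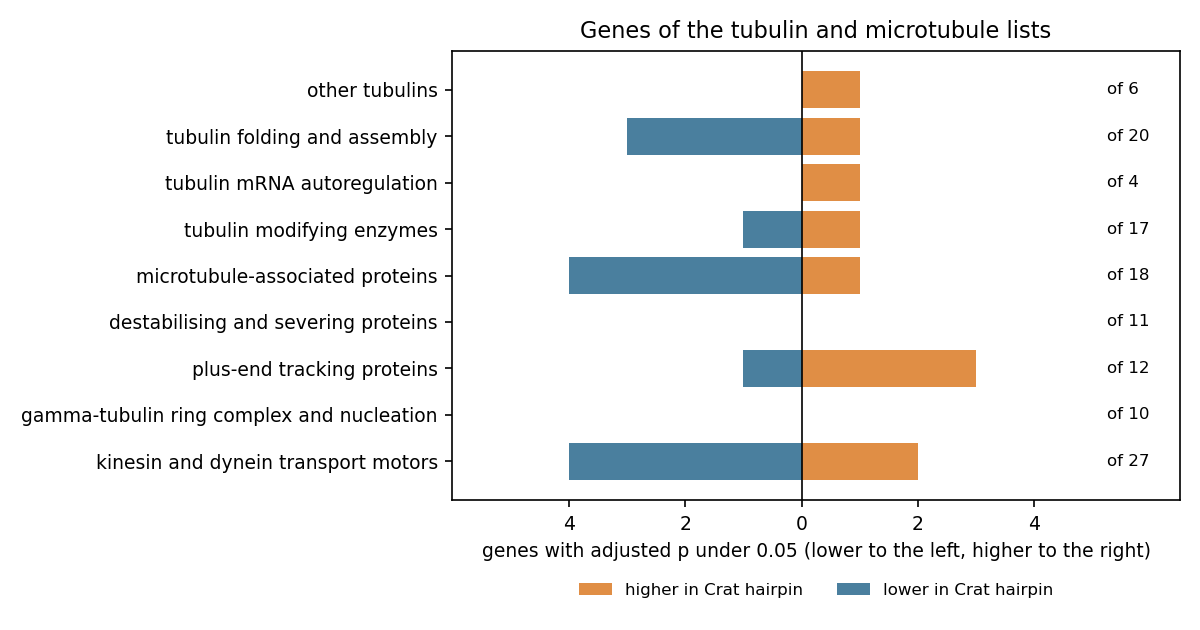
Number of genes in each of 9 tubulin and microtubule lists with an adjusted p under 0.05, lower in the Crat hairpin group to the left and higher to the right, with the number tested at the right edge. The motor and microtubule-associated lists hold 4 lower genes each, and the destabilising and gamma-tubulin lists hold none in either direction. Over all genes tested, 6.36% were lower and 12.6% higher.

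Among 6 further tubulins tested, Tuba8, a divergent alpha-tubulin known from muscle and testis in mouse, rose, with 9.33 and 15.4 RPM in the Crat hairpin libraries and 1.31 and 0.757 RPM in the control libraries. The log2 fold change of Tuba8 was 2.69 ± 0.60 (limma adjusted p = 0.0117). It rests on 3 and 25 reads in the Crat hairpin libraries and on 31 reads and 1 read in the controls, and over the summed reads the ratio was 11.2 with an exact 95% interval of 6.53 to 19.3, which covers counting error only. The Tuba8 call was lost without control replicate 1 (adjusted p = 0.157) or control replicate 2 (adjusted p = 0.0923). Tubg1, the gamma-tubulin that seeds microtubules, had 40.4 and 51.8 RPM in the Crat hairpin libraries and 40.4 and 49.2 RPM in the control libraries. Its values overlapped.

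New tubulin is folded by the chaperonin CCT with the help of prefoldin, and paired into dimers by tubulin cofactors. In this list 3 of 20 genes fell and 1 rose, where 6.36% of all genes fell and 12.6% rose. After median-of-ratios scaling 11 fell and 1 rose, where 9.68% and 8.06% of all genes did. The list median was -0.30. Pdcl3, a cofactor of the chaperonin, fell by 1.05 ± 0.26 on the log2 scale, the chaperonin subunits Cct3 and Cct7 fell by 0.45 ± 0.13 and 0.34 ± 0.10, and the prefoldin subunit Pfdn6 rose by 1.16 ± 0.29 (limma adjusted p = 0.0185, 0.0367, 0.0404 and 0.0211). In the list for decay of tubulin mRNA, where TTC5 is known in human cells to recognise nascent tubulin and to act through the CCR4-NOT deadenylase, 1 of 4 rose. This was Cnot1, the scaffold of the deadenylase, at 0.56 ± 0.12 (limma adjusted p = 0.0100), a call lost after median-of-ratios scaling (adjusted p = 0.0657) and without either control library (adjusted p = 0.151 and 0.0895). Cnot11, another subunit, had 37.3 and 27.7 RPM in the Crat hairpin libraries and 17.7 and 15.9 RPM in the control libraries, and missed the threshold (limma adjusted p = 0.0533).

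Enzymes modify tubulin tails, some on free dimers and some on microtubules. Of 17 modifying enzymes 1 rose and 1 fell, where 12.6% of all genes rose and 6.36% fell. Ttl, the ligase that puts tyrosine back on alpha-tubulin, fell, with 28.0 and 31.4 RPM in the Crat hairpin libraries and 62.7 and 66.6 RPM in the control libraries. The Ttl log2 fold change was -1.10 ± 0.20 (limma adjusted p = 0.00421). Ttll4, which starts glutamate chains on tubulin, rose, with 46.7 and 53.6 RPM in the Crat hairpin libraries and 20.4 and 14.4 RPM in the control libraries, a log2 fold change of 1.49 ± 0.26 (limma adjusted p = 0.00358).

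Among proteins that coat microtubules 4 of 18 fell and 1 rose, where 6.36% of all genes fell and 12.6% rose. Mapt, which encodes tau, rose, with 106 and 65.9 RPM in the Crat hairpin libraries and 17.7 and 18.9 RPM in the control libraries (log2 fold change 2.13 ± 0.26, limma adjusted p = 3.5e-04). Map1b, best known from growing axons, fell by 1.07 ± 0.10 on the log2 scale (limma adjusted p = 5.4e-05). Map4, the main such protein outside nerve cells and one that decorates microtubules in heart muscle, fell to 280 and 266 RPM in the Crat hairpin libraries, against 440 and 415 RPM in the control libraries. Its log2 fold change was -0.65 ± 0.09 (limma adjusted p = 6.0e-04), and Mtus2 fell by 0.87 ± 0.23 on the log2 scale (limma adjusted p = 0.0295).

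Of 12 genes for proteins that follow growing ends, 3 rose and 1 fell, where 12.6% of all genes rose and 6.36% fell. After median-of-ratios scaling 0 rose and 2 fell, where 8.06% and 9.68% of all genes did. The microtubule polymerase Ckap5 rose by 0.71 ± 0.16, Slain2 by 0.58 ± 0.13 and Clasp1 by 0.43 ± 0.13, and Clip1, which links growing ends to dynein, fell by 0.69 ± 0.19 on the log2 scale (limma adjusted p = 0.0125, 0.0145, 0.0406 and 0.0285). Ckap5, Slain2 and Clasp1 lost their calls after that scaling. Of 11 destabilising and severing proteins none passed limma in either direction, at an unadjusted p under 0.05 none did, and edgeR, DESeq2 and voom called 0. Their SEs ran from 0.22 (Kif2a) to 0.59 (Kif18a), so a difference in them could go uncalled. Kif2a and Stmn1 had log2 fold changes of 0.10 and 0.24. Of 10 genes of the gamma-tubulin ring and nucleation none passed limma, with 1 higher and 0 lower at an unadjusted p under 0.05, 1 lower by edgeR and by voom and 0 by DESeq2; Akap9 stood at 0.35 and Tubgcp3 at -0.29.

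Of 27 transport motor genes 4 fell and 2 rose, where 6.36% of all genes fell and 12.6% rose. After median-of-ratios scaling 6 fell and 1 rose, where 9.68% and 8.06% of all genes did. Kif5b, the heavy chain of the widely expressed kinesin, fell to 261 and 295 RPM in the Crat hairpin libraries, against 991 and 956 RPM in the control libraries, a log2 fold change of -1.81 ± 0.08 (limma adjusted p = 3.5e-07). The dynein subunits Dync1li2 and Dynll1 fell by 1.34 ± 0.16 and 0.65 ± 0.11 on the log2 scale, and Dctn1, the large subunit of dynactin, which joins dynein to cargo, rose by 0.77 ± 0.16 (limma adjusted p = 3.0e-04, 0.00362 and 0.00826). Dynein subunits did not move alike. The heavy chain Dync1h1 had 768 and 831 RPM in the Crat hairpin libraries and 529 and 654 RPM in the control libraries. Its log2 fold change was 0.44 ± 0.10 (limma adjusted p = 0.0121), and 0.25 after median-of-ratios scaling, where it was no longer called. Dync1h1 was added outside the naming rule and is not among the 20 genes counted as past the threshold.

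As for the labelled cell type, all 13 cardiomyocyte markers with a row had reads in every library. Their summed level was 15682 to 15929 RPM in the Crat hairpin libraries and 34392 to 34830 RPM in the control libraries. Of the 13, 10 fell and 1 rose. Over all genes tested 6.36% fell and 12.6% rose, or 9.68% and 8.06% after median-of-ratios scaling. Markers of other cell types moved too. The summed level of 8 smooth muscle and pericyte markers was 1811 to 1900 RPM in the Crat hairpin libraries and 5225 to 5334 RPM in the control libraries (6 fell, 1 rose, or 0 after median-of-ratios scaling). Rgs5 was at 0 in Crat hairpin replicate 1, where a read is worth 3.11 RPM, and at 5.11 and 3.78 RPM in the controls. It did not pass the threshold (limma adjusted p = 0.245). The smooth muscle and pericyte marker that rose was Pdgfrb. It had 559.8 and 577.3 RPM in the Crat hairpin libraries and 437.5 and 441.8 RPM in the control libraries (log2 fold change 0.37 ± 0.07, limma adjusted p = 0.00571). The summed level of 10 fibroblast markers was 16814 to 17159 RPM in the Crat hairpin libraries and 22967 to 23953 RPM in the control libraries (6 fell, 2 rose). The 19 mitotic markers with a row summed to 286 to 302 RPM in the Crat hairpin libraries and 334 to 343 RPM in the control libraries; of 19 tested 1 fell, Anln, at -1.36 ± 0.18 (limma adjusted p = 7.2e-04).

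For the isotypes known from nerve cells, 9 neuronal and Schwann cell markers with a row summed to 253 to 336 RPM in the Crat hairpin libraries and 297 to 308 RPM in the control libraries. Ncam1, which heart cells also express, held most of these. Of 6 tested 1 fell, where 6.36% of all genes fell and 12.6% rose. This was Uchl1, at 12.4 and 10.5 RPM in the Crat hairpin libraries and 39.1 and 33.3 RPM in the control libraries (log2 fold change -1.58 ± 0.29, limma adjusted p = 0.00442). Its Crat hairpin values rest on 4 and 17 reads, and the call was lost without a variance trend (limma adjusted p = 0.0525). Gap43 and Stmn2, both under the filter on low values, were at 0 in both Crat hairpin libraries, and Gap43 also in control replicate 2. The 6 endothelial markers summed to 65.9 to 71.5 RPM in the Crat hairpin libraries and 56.6 to 66.6 RPM in the control libraries (1 rose, 1 fell). The 6 leukocyte markers summed to 36.4 to 40.4 RPM in the Crat hairpin libraries and 36.2 to 36.3 RPM in the control libraries. Limma, an unadjusted p under 0.05, edgeR, DESeq2 and voom each called 0. In Crat hairpin replicate 1 these markers had from 0 reads (Csf1r) to 4 reads (Fcer1g and Laptm5). Their SEs ran from 0.44 (Cd68) to 0.89 (Csf1r), so a difference in them could go uncalled. The part of any of these cell types in the tubulin differences was not tested.

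By the distance between their 4 centred log2 levels, among 4114 genes that carry a symbol and average 50 RPM or more, the genes nearest to Tuba1b were LOC685883, Tpm2 and Pdlim3, at distances of 0.0459, 0.0581 and 0.0663. Tpm2 encodes a tropomyosin and Pdlim3 a protein of the muscle Z-disc. Nearest to Tubb5 were Stard9, RGD1560015 and Cast, at distances of 0.0143, 0.0293 and 0.0296. With 4 libraries in 2 groups, such distances describe a similar difference between groups and little else.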

How the data were processed

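Total RNA of neonatal rat ventricular myocytes gave 4 libraries, read on an Illumina instrument per the labels' protocols. Kallisto, DESeq2 and the build mRatBN7.2 are named in the submitters' processing notes, without settings. The deposited table of 14318 rows for 14137 identifiers holds the authors' signal for each library, and p-values with their adjusted form. Per the file headers the library columns are TPM, but 100% of the values are whole multiples of a step constant within a library (within 0.02 of a read), so the deposited signal was taken as reads scaled to a common total (RPM) without division by length. A read was worth 3.11 and 0.616 RPM in Crat hairpin replicates 1 and 2 and 0.0422 and 0.757 RPM in control replicates 1 and 2. Identifiers standing on several rows (140) were used once. Replicate pairs differed by more than counting error, with a chi-square per degree of freedom of 1.30 in the Crat hairpin and 1.49 in the control pair.

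Genes averaging 1 RPM or more were fitted as log2(RPM + 1) by limma 3.58.1 (R 4.3.3; trended variance, no covariate) and adjusted by Benjamini-Hochberg over all 12949 (threshold 0.05). Fold changes on this scale understate the change of low genes. The fit gives libraries of very different depth the same variance. Alternatives were other pseudocounts, filters, scaling and variance settings, fits with the replicate number as a block or without each library, and edgeR 4.0.16, DESeq2 1.42.0 and voom on recovered reads. Members and lists were chosen with earlier results of these data known. The text names all members, up to 4 genes past the threshold by size in each list (or 2 by mean where fewer than 2 passed), the 3 nearest genes to Tuba1b and Tubb5, and Crat. Cell type lists are given mainly by counts and sums. Dync1h1, Rgs5, Pdgfrb, Gap43 and Stmn2 were added after their values were seen. Shares were not divided by transcript length, because no transcript length was used here.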

Additional observations from a re-analysis of the deposited data

How the results depend on the processing

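Of the 9 isotypes, 6 were called lower, and 6 or 7 were under other pseudocounts and filters, median-of-ratios scaling, the robust prior, edgeR, DESeq2, voom and the authors' deposited adjusted p. In those of these fits run here, 5.16% (no filter) to 15.9% (edgeR) of all genes tested were called lower. Without a variance trend 1 isotype was, Tubb2b, which passed the filter on low values only through the control group. The count called higher was 0 with all libraries kept. With a library left out, the number of isotypes called lower rose or fell with that over all genes. For the microtubule lists, 13 lower and 10 higher, median-of-ratios scaling gave 24 lower and 5 higher, no variance trend 1 and 0, edgeR 37 lower, voom 36 lower, and DESeq2 4 higher. Over all genes tested the shares called lower were 6.36% in the fit reported, 9.68% after that scaling, 0.61% without a variance trend, 15.9% in edgeR and 15.3% in voom, and the shares called higher were 12.6% in the fit reported, 8.06% after that scaling, 2.05% without a variance trend and 5.78% in DESeq2. With a library left out the lists gave 3 to 39 lower and 1 to 18 higher. The cause of these moves was not tested. With the replicate number as a block, 6 isotypes were called lower, and 14 list genes were lower and 10 higher; of the named genes Clasp1 lost its call (adjusted p = 0.0511). The labels give numbers only and state no pairing. Deviations of same-numbered libraries were nearly uncorrelated (r = 0.00612). Counting noise in the shallow Crat hairpin replicate 1 can hide a shared deviation, so this value cannot decide whether the numbers pair the samples. After median-of-ratios scaling the alpha sum was 1061 RPM in the Crat hairpin group and 2121 RPM in the control group, and the beta sum was 976 RPM in the Crat hairpin group and 1448 RPM in the control group.

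Of the 20 pathway genes named by rule as past the threshold, 16 passed after median-of-ratios scaling and 14 in DESeq2. Dync1h1, added outside that rule, is not counted and lost its call after median-of-ratios scaling. Cct3 lost its call with no filter on low values (adjusted p = 0.0651), and Clasp1 in edgeR (log2 fold change 0.21, adjusted p = 0.22) and voom (0.21, adjusted p = 0.149). Without a variance trend Kif5b alone passed. Signs turned only in genes that did not pass in the fit reported. The log2 fold change of Tuba1c was -0.017 in edgeR and -0.047 in voom, and that of Tubb4b ran over -0.053 to 0.041 with a library left out. Tubg1 stood at -0.15 after median-of-ratios scaling and -0.069 in DESeq2, with -0.14 to 0.21 when a library was left out. Kif2a stood at -0.088 after that scaling, -0.29 in edgeR, -0.17 in DESeq2 and -0.31 in voom, with -0.053 to 0.25 when a library was left out. Ncam1 stood at -0.13 after that scaling, -0.23 in edgeR and in voom (adjusted p = 0.0329 in voom) and -0.17 in DESeq2, with -0.16 to 0.28 when a library was left out. Of the leukocyte markers, Fcer1g ran over -0.83 to 0.35 with a library left out, and Laptm5 over -0.14 to 0.54, with -0.016 in edgeR and -0.027 in DESeq2.

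Shares and the ratio of beta to alpha moved by less than 1 SD with a library left out, which 2 libraries a group give by construction. No isotype had a mean under 5 RPM, so a filter at that level removed none and is no check on Tubb2b. At a mean of 5.27 RPM, Tubb2b stayed only through the control group (10.2 RPM, against 0.308 RPM in the Crat hairpin group). Division by length was not run. The depth of Crat hairpin replicate 1, where a read is worth 3.11 RPM, limits every statement on Tubb2b, Tubb3, Tubb2a and Tuba4a.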
